A study of Mus musculus with 24 samples.

Results

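The TNF family ligands and receptors described here are 10 genes of the 17097 measured on the arrays. They were chosen by name, with earlier results of these data known, and all 10 were measured. They are 4 ligands (Tnf, Ltb, Tnfsf10 and Tnfsf13b) and 6 receptors (Tnfrsf1a, Tnfrsf1b, Fas, Cd40, Tnfrsf12a and Tnfrsf21). The study compared spinal cords of mice with experimental autoimmune encephalomyelitis (EAE), a model of inflammatory demyelination, with those of naive mice. EAE was induced by passive transfer of Th1 or Th17 cells specific for the myelin peptide MOG35-55 into sublethally irradiated recipients. The 24 arrays, 1 for each mouse, fell into 5 groups. There were 5 naive wild-type mice, 5 wild-type recipients of Th1 cells, 5 wild-type recipients of Th17 cells, 5 naive Act1 KO mice and 4 Act1 KO recipients of Th17 cells. All mice were young adult females and littermates per the methods, and cords were taken at a fixed day after transfer. The labels call this time the onset of symptoms and the study's text the peak of disease. Irradiation was given to recipients only, so in every comparison with naive mice the cell transfer and the irradiation cannot be told apart. Act1 KO mice received no Th1 cells. Act1 couples the receptor for IL-17 to its downstream kinases, and its gene is named Traf3ip2. The Act1 allele is not described in the sources used here, and the Traf3ip2 probe set was not lower but higher in naive Act1 KO than in naive wild-type mice (5.56 ± 0.24 against 4.29 ± 0.20 log2, SD, n = 5 each), so this probe set does not check the genotype labels.

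TNF superfamily ligands are mostly trimeric membrane proteins, some of which are released by shedding, and their receptors signal as clusters. Receptors with a cytoplasmic death domain, such as Tnfrsf1a and Fas, can recruit FADD and caspase-8, whereas the others act mainly through TRAF adaptors, and many members of both kinds activate NF-κB. In the inflamed spinal cord the family is known for costimulation of lymphocytes, activation of myeloid cells and glia, and control of cell death.

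The spinal cord label was borne out as central nervous tissue by neuron, oligodendrocyte and astrocyte markers in naive wild-type mice. Of these, 0 of 8, 0 of 6 and 1 of 7 had a mean below the lowest array median. These markers do not tell spinal cord from brain. The probe sets of Slc1a3 and Pdgfra lay below the array medians (3.46 to 3.57 log2). The 4 Act1 KO recipients lay with the naive mice on the first principal component of all genes, which held 82.8% of the variance. On it Th1 recipients 4 and 5 (55.0 and 55.9) stood apart from Th1 recipients 1 to 3 (67.8 to 68.5), and results that rest on them are given with and without them. All levels below are RMA-normalised log2 intensities of 1 probe set per gene, read between groups of mice and not between genes, and log2 differences are group means subtracted. Differences were called at an adjusted p under 0.05 from limma, with Benjamini-Hochberg adjustment over all genes.

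Promoters of 9 of the 10 members were found in RefSeq (GRCm38.p6), running from 250 bases before to 50 bases after the start site, and Cd40 was not matched. Ltb, Tnf and the further ligand gene Lta are consecutive protein-coding genes on chromosome 17. The 4 promoters below belong to members on which the results turn, and capitals mark matches to 5 motifs searched on both strands. Ltb (chr17:35194257-35194556, + strand) held a match to the NF-κB motif at position −87 from the start site, on the opposite strand, and a GAS motif (TTCNNNGAA) at −172. Tnf (chr17:35201958-35202257, − strand) held a TATA box (TATAAA) at −29. Tnfrsf1b (chr4:145246821-145247120, − strand) held a GAS motif at −181 and an interferon-response motif (GAAANNGAA, here on the opposite strand) at −9. Fas (chr19:34290409-34290708, + strand) held a GAS motif at −93 that overlaps an RBP-J motif (TGGGAA) at −90.
Ltb: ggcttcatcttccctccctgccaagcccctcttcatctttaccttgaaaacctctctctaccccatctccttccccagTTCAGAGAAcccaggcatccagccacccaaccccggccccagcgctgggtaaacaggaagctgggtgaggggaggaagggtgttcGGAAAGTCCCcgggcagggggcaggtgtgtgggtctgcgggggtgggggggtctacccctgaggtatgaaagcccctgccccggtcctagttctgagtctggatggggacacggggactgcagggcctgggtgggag
Tnf: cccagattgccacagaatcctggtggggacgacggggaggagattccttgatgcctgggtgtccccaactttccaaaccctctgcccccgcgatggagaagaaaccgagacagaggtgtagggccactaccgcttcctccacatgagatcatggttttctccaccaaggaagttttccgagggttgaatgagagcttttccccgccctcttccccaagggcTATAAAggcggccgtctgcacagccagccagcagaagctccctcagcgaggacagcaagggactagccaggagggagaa
Tnfrsf1b: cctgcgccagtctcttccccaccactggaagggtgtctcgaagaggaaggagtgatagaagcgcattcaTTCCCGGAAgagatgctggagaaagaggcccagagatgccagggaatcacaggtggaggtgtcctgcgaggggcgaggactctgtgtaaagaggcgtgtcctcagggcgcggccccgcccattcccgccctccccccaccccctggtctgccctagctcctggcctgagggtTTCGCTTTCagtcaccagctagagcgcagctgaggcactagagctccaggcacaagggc
Fas: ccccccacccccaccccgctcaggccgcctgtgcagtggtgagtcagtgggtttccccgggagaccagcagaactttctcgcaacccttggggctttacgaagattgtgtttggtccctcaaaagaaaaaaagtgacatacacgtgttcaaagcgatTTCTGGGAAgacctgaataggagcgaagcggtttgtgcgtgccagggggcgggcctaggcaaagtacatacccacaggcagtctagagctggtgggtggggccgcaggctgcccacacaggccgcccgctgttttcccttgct
Among the 32851 promoters of the table, 8.46% held the NF-κB motif, 8.30% the GAS motif, 8.56% the interferon-response motif, 25.6% the RBP-J motif and 13.6% the TATA box. Besides the 4 promoters shown, Tnfrsf1a held a GAS motif at −244 and 1 of the 2 promoters of Tnfsf13b an interferon-response motif at −16. These matches describe the letters in these windows and carry no measurement of binding.

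**Figure D1:**
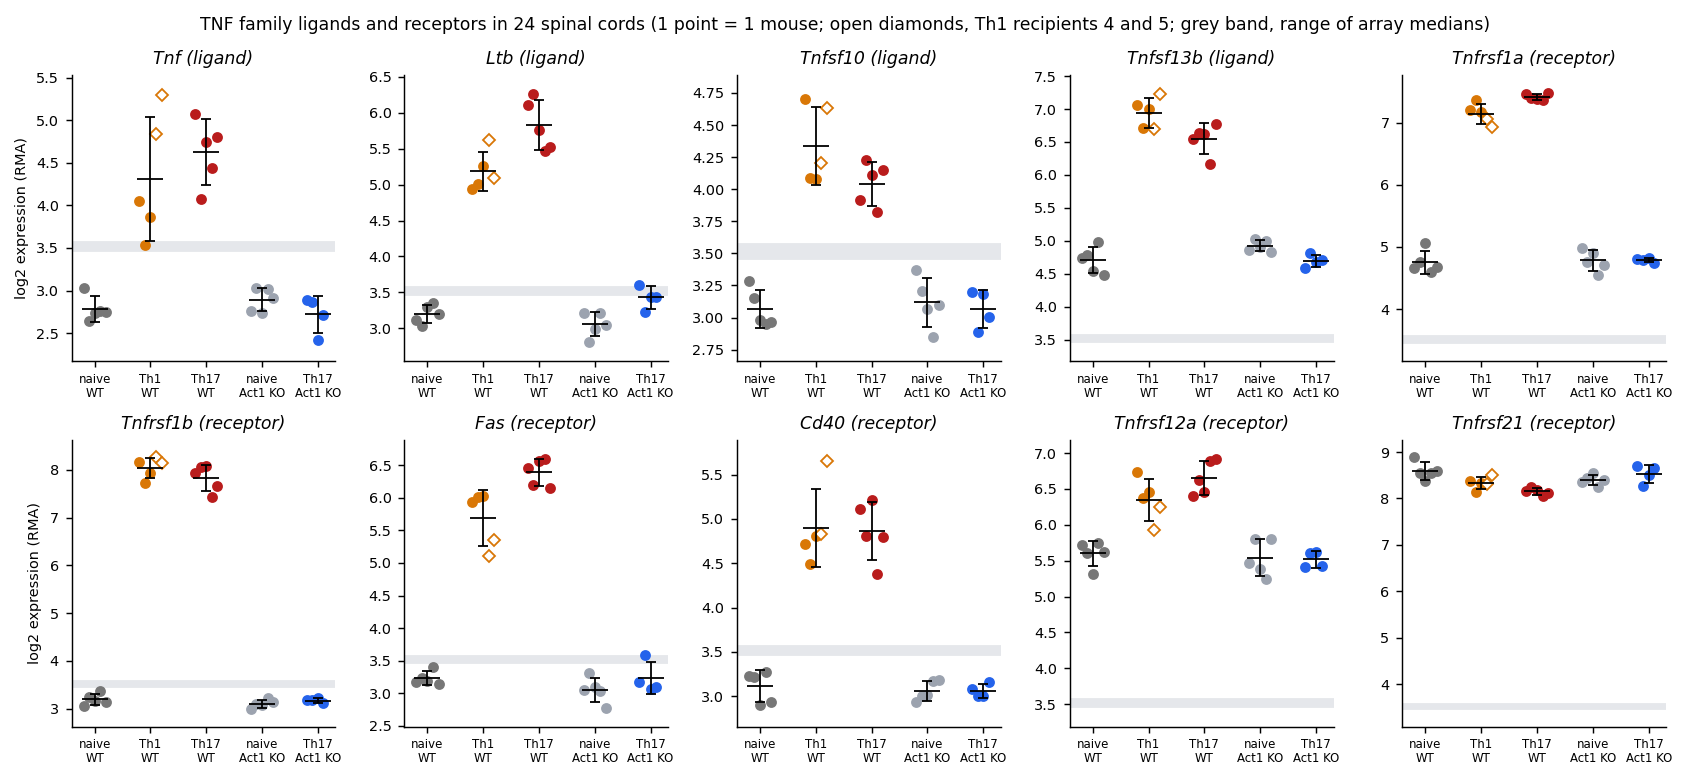
Log2 expression (vertical axes, scaled separately for each gene) of the 10 TNF family genes in 24 spinal cords, with 1 point per mouse, the group mean and SD in black, Th1 recipients 4 and 5 as open diamonds and the range of array medians as a grey band. In 9 genes both wild-type recipient groups lie above all naive and Act1 KO mice, and in Tnfrsf21 wild-type Th17 recipients lie below all naive wild-type mice while Th1 recipients overlap them.

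All 4 ligands rose in wild-type recipients of either T cell type, and in whole cord more cells of a type and more RNA per cell, or fewer and less, cannot be told apart. Tnf, the inflammatory cytokine that signals through both TNF receptors, was at 3.03, 2.64, 2.73, 2.76 and 2.74 log2 in naive wild-type mice 1 to 5. It was at 4.05, 3.53, 3.86, 4.83 and 5.29 in Th1 recipients and at 5.08, 4.07, 4.75, 4.44 and 4.81 in Th17 recipients. Naive means of 6 members (Tnf, Ltb, Tnfsf10, Tnfrsf1b, Fas and Cd40) lay below the array medians, where no detection floor is known, so their folds are ratios of the measured intensities and not of transcript numbers. Neither recipient group overlapped the naive mice in Tnf, and Th1 recipients 4 and 5 were the highest of their group. The difference from naive mice was 1.85 ± 0.23 (SE, 3.60-fold, limma adjusted p = 1.39e-07) in Th17 recipients and 1.53 ± 0.23 (2.89-fold, adjusted p = 3.21e-06) in Th1 recipients. Without Th1 recipients 4 and 5, the Th1 difference was 1.03 ± 0.17.

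Ltb, the lymphotoxin β chain that anchors lymphotoxin α at the cell surface, was at 3.11, 3.04, 3.29, 3.36 and 3.20 log2 in naive wild-type mice. Its levels were 4.94, 5.01, 5.26, 5.62 and 5.09 in Th1 recipients and 6.11, 6.26, 5.76, 5.47 and 5.52 in Th17 recipients. The lowest recipient of either kind thus lay above the highest naive mouse, while the recipient groups overlapped each other. Ltb rose by 2.63 ± 0.14 (6.17-fold, adjusted p = 7.69e-15) in Th17 recipients and by 1.98 ± 0.14 (3.96-fold, adjusted p = 3.64e-12) in Th1 recipients.

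Tnfsf13b encodes BAFF, the survival factor of B cells. It ranged from 4.48 to 4.98 log2 in naive mice, from 6.70 to 7.24 in Th1 recipients and from 6.16 to 6.78 in Th17 recipients. The increase was 2.24 ± 0.11 (adjusted p = 3.65e-15) with Th1 and 1.85 ± 0.11 (adjusted p = 2.31e-13) with Th17 cells. This result rests on the brightest of 3 Tnfsf13b probe sets, since the other 2 differed by −0.16 and −0.09 between Th17 recipients and naive mice and neither was called. Of the B cell markers beside it, Ms4a1, Cd79a, Cd79b and Pax5 lay below the array medians in all 5 groups. The other measured B cell marker, Cd22, rose by 2.50 with Th17 and 3.30 with Th1 cells, and was the only one called. The median difference of the 5 markers was 0.04 with Th17 and −0.05 with Th1 cells. Their summed level, raised by Cd22, went from 34.0 to 37.0 in naive mice to 55.6 to 97.0 with Th17 and 87.2 to 118 with Th1 cells. Their part in the Tnfsf13b result was not tested.

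Tnfsf10 encodes TRAIL, a ligand that can trigger death receptor signalling. It ranged from 2.95 to 3.28 log2 in naive mice, from 4.08 to 4.70 in Th1 recipients and from 3.82 to 4.23 in Th17 recipients. Its increase was 1.27 ± 0.12 (adjusted p = 2.46e-09) with Th1 and 0.98 ± 0.12 (adjusted p = 2.14e-07) with Th17 cells, and its 2 dimmer probe sets also rose, by 0.47 and 0.64 with Th17 cells.

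Of the 6 receptors, 5 rose and Tnfrsf21 fell in both wild-type recipient groups. Tnfrsf1b encodes the second TNF receptor, which binds membrane TNF well and lacks a death domain. It was at 3.06, 3.24, 3.16, 3.38 and 3.14 log2 in naive wild-type mice, below the array medians. It reached 8.16, 7.73, 7.93, 8.26 and 8.14 in Th1 recipients and 7.93, 8.05, 8.08, 7.43 and 7.66 in Th17 recipients. The gap between naive mice and recipients was far wider than the spread in any group. The increase was 4.63 ± 0.11 (24.8-fold, adjusted p = 1.84e-22) with Th17 and 4.85 ± 0.11 (28.9-fold, adjusted p = 7.15e-23) with Th1 cells. A dimmer Tnfrsf1b probe set rose less, by 1.56 and 1.37, and the median of both sets rose by 3.10 and 3.11, so the size of the increase depends on the probe set.

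Tnfrsf1a, the death domain receptor for soluble TNF, was measured above the array medians in every mouse. It was at 4.66, 4.76, 5.06, 4.59 and 4.68 log2 in naive wild-type mice, at 7.20, 7.37, 7.17, 7.06 and 6.94 in Th1 recipients and at 7.46, 7.40, 7.38, 7.36 and 7.48 in Th17 recipients. Th17 recipients lay close together (SD 0.049, n = 5), above 4 of the 5 Th1 recipients at their lowest. It rose by 2.67 ± 0.09 (6.35-fold, adjusted p = 5.75e-19) with Th17 and by 2.40 ± 0.09 (5.27-fold, adjusted p = 6.86e-18) with Th1 cells.

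Fas, the death receptor for Fas ligand, was at 3.17, 3.23, 3.19, 3.41 and 3.14 log2 in naive wild-type mice. It was at 5.94, 6.01, 6.03, 5.11 and 5.35 in Th1 recipients and at 6.45, 6.20, 6.56, 6.60 and 6.14 in Th17 recipients. The 3 groups were separate from one another, with Th1 recipients 4 and 5 the lowest of theirs. Fas rose by 3.16 ± 0.15 (8.95-fold, adjusted p = 8.61e-16) with Th17 and by 2.46 ± 0.15 (5.50-fold, adjusted p = 2.44e-13) with Th1 cells.

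Cd40, the costimulatory receptor of antigen-presenting cells, ranged from 2.90 to 3.28 log2 in naive mice, from 4.49 to 5.65 in Th1 recipients and from 4.38 to 5.22 in Th17 recipients. Its increase was 1.75 ± 0.16 (adjusted p = 6.22e-10) with Th17 and 1.79 ± 0.16 (adjusted p = 4.83e-10) with Th1 cells. A dimmer Cd40 probe set rose by 1.70 with Th17 and 1.11 with Th1 cells. Tnfrsf12a, the receptor for TWEAK known as Fn14, was already measured well above the array medians in naive mice, from 5.31 to 5.74. It ranged from 5.93 to 6.73 in Th1 recipients and from 6.40 to 6.91 in Th17 recipients, and rose by 0.75 ± 0.14 (adjusted p = 5.28e-05) and 1.06 ± 0.14 (adjusted p = 3.18e-07). When arrays were centred on ribosomal protein genes, Tnfrsf12a was no longer called in Th1 recipients (0.28, adjusted p = 0.0776).

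Tnfrsf21, the death receptor DR6, known from neurons and oligodendrocytes, was the member that fell. It was at 8.89, 8.56, 8.37, 8.55 and 8.60 log2 in naive wild-type mice, at 8.37, 8.14, 8.33, 8.32 and 8.50 in Th1 recipients and at 8.16, 8.25, 8.17, 8.06 and 8.12 in Th17 recipients. All 5 Th17 recipients lay below all naive mice, whereas Th1 recipients overlapped them. It fell by 0.44 on the log2 scale (SE 0.09, adjusted p = 0.000306) with Th17 and by 0.26 (SE 0.09, adjusted p = 0.0270) with Th1 cells. The Th1 call was lost without naive mouse 1 (adjusted p = 0.115) or without Th1 recipient 2 (adjusted p = 0.0923). A dimmer Tnfrsf21 probe set gave −0.61 with Th17 cells (limma adjusted p = 3.91e-05 in a fit of all probe sets). With Th1 cells it gave −0.48 (adjusted p = 0.000717 in the same fit). All 8 measured neuron markers, 5 of 6 oligodendrocyte markers and 4 of 5 oligodendrocyte precursor markers also fell in both recipient groups. The summed level of the neuron markers went from 14946 to 16488 in naive mice to 8956 to 10319 in Th1 and 8700 to 9991 in Th17 recipients. That of the oligodendrocyte markers went from 14916 to 16254 in naive mice to 9922 to 11714 in Th1 and 10454 to 11981 in Th17 recipients. Their part in the Tnfrsf21 result was not tested.

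The members, and the lists counted below, were chosen with earlier results of these data known. Shares over all genes are therefore given beside the counts and do not test the family. Counted together, all 10 members were called in Th17 recipients against naive mice, 9 higher and 1 lower, where 43.5% of all genes were called, 18.0% higher and 25.5% lower. In Th1 recipients all 10 were called in the same directions, against 40.8% of all genes, 16.7% higher and 24.1% lower. The median difference over the members was 1.85 with Th17 and 1.89 with Th1 cells, beside −0.05 and −0.06 over all genes. The groups did not overlap in 10 members with Th17 cells (35.0% of all genes, 15.0% with recipients above and 20.0% below) and in 9 with Th1 cells (33.6%, 14.1% above and 19.5% below). For each of these the exact two-sided permutation test gave 0.00794, the smallest p that 5 against 5 arrays allow. The titles carry a code read here as a plate row, and within each of the 4 rows with naive and Th17 arrays and each of the 3 rows with naive and Th1 arrays the 9 members were higher and Tnfrsf21 lower. Both comparisons share the naive mice.

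The recipients also differed from naive mice in their cell type markers. All 9 measured monocyte and macrophage markers rose with either T cell type, and their summed linear level went from 104 to 111 in naive mice to 2853 to 3657 with Th1 and 3221 to 4215 with Th17 cells. All 10 T cell markers rose with Th17 and 9 of 10 with Th1 cells, from 72.5 to 77.1 in naive mice to 438 to 506 and 533 to 665. In naive mice all 10 T cell markers and 4 of the 9 monocyte and macrophage markers, among them Ccr2 and Fcgr1, lay below the array medians. Neutrophil markers reached 209 to 380 with Th1 and 744 to 1525 with Th17 cells, from 63.8 to 88.3. Of 5 homeostatic microglia markers, 2 rose with either T cell type, and 3 fell with Th17 and 2 with Th1 cells. The part of these cell types in the members' increases was not tested.

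**Figure D2:**
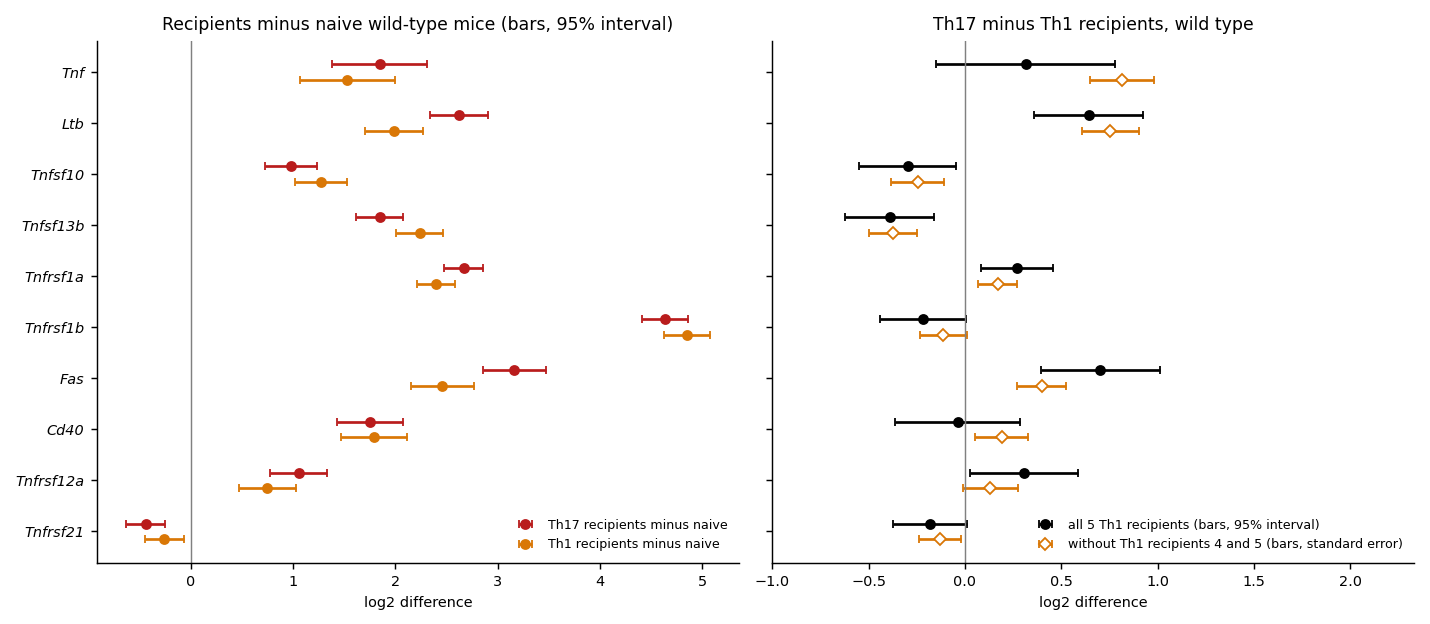
Log2 differences of the 10 members between wild-type groups. Left, recipients of Th17 (red) or Th1 (orange) cells minus naive mice with 95% intervals, all above 0 except Tnfrsf21. Right, Th17 minus Th1 recipients, with all Th1 recipients (black, 95% intervals) and without recipients 4 and 5 (open diamonds, standard errors), where Tnf moves from 0.32 to 0.82 and Fas from 0.70 to 0.40.

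Set against each other, Th17 and Th1 recipients differed in a ligand and a receptor. Ltb was higher with Th17 cells by 0.64 ± 0.14 (1.56-fold, 95% interval 0.36 to 0.93, adjusted p = 0.00650) and Fas by 0.70 ± 0.15 (1.63-fold, 0.39 to 1.01, adjusted p = 0.00630). These 2 of 10 members stand beside 3.00% of all genes called, 1.91% higher and 1.09% lower, and the median difference over the members was 0.12 beside 0.00 over all genes. Fas was the member whose groups did not overlap (3.29% of all genes, 1.93% with Th17 above and 1.36% below), with an exact permutation p of 0.00794, and Ltb had an exact p of 0.0238. Neither was called when only these 2 groups entered the fit (adjusted p = 0.0777 for Ltb and 0.0679 for Fas). Within the 3 plate rows that held both groups, Ltb was higher with Th17 cells by 0.67 to 1.32 and Fas by 0.26 to 1.21.

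Th1 recipients 4 and 5 moved several members in opposite directions. They lay above Th1 recipients 1 to 3 in Tnf, by 1.25, and in Cd40, by 0.57, and below them in Fas by −0.76, in Tnfrsf12a by −0.43 and in Tnfrsf1a by −0.25. Without them, Tnf was higher with Th17 than with Th1 cells (0.82 ± 0.17, adjusted p = 0.00643), where all 5 Th1 recipients gave 0.32 ± 0.23 (adjusted p = 0.713) and within plate rows the difference ran from −0.55 to 1.22. Fas was then no longer called (0.40 ± 0.13, adjusted p = 0.147), while Ltb was still called (0.76 ± 0.15, adjusted p = 0.00456). The summed level of the homeostatic microglia markers was highest in the same 2 mice (703 and 622, against 386 to 491 in Th1 recipients 1 to 3). Other lists set these mice apart too. Neuron markers (10275 and 10319 against 8956 to 9877), oligodendrocyte, oligodendrocyte precursor and astrocyte markers were higher. T cell markers (461 and 438 against 488 to 506), neutrophil and endothelial markers were lower, and the remaining lists overlapped. The part of these markers in these values was not tested.

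No call was made for the remaining 8 members with all Th1 recipients in the fit. Tnfsf13b was at a difference of −0.39 (95% interval −0.62 to −0.16, adjusted p = 0.0607) and passed the threshold in some settings, among them plate row as a block (adjusted p = 0.0194). Tnfrsf1a gave 0.27 (0.08 to 0.46, adjusted p = 0.135), Tnfsf10 −0.30 (−0.55 to −0.04, adjusted p = 0.278) and Tnfrsf12a 0.31 (0.03 to 0.59, adjusted p = 0.333). The intervals of Tnfrsf1b (−0.44 to 0.01), Cd40 (−0.36 to 0.29) and Tnfrsf21 (−0.37 to 0.01) included 0. A dimmer Cd40 probe set gave 0.59 (SE 0.20, limma adjusted p = 0.186) and was not called either. Dimmer Tnfsf10 probe sets gave 0.025 and 0.086. Tnfrsf1a was called when arrays were centred on ribosomal protein genes (0.33, adjusted p = 0.0255). Beside these values, 5 of 7 neutrophil markers, 5 of 9 monocyte and macrophage markers and 3 of 10 T cell markers were higher with Th17 cells, and their part in these values was not tested.

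Beyond the 10 members, 5 lists of other genes of the pathway were counted, beside 18.0% of all genes higher and 25.5% lower with Th17 cells and 16.7% higher and 24.1% lower with Th1 cells. These counts depend on the scaling. Centring on ribosomal protein genes moved the median of all genes to −0.46 with Th17 and −0.53 with Th1 cells, and the counts on that scale follow each list's own. Of 11 other ligands, 7 were higher and 0 lower with Th17 cells (7 and 4 on the ribosomal scale), and 8 were higher and 0 lower with Th1 cells (4 and 3). Tnfsf13, which encodes APRIL, a factor for plasma cells and B cells, rose by 3.03 with Th17 and 3.73 with Th1 cells. Fasl, the ligand of Fas, rose by 1.87 and 2.17, so that ligand and receptor transcripts were higher in the same groups. Tnfsf9, the ligand of the costimulatory receptor 4-1BB, rose by 1.93 with Th17 cells, and Tnfsf14, which encodes LIGHT, by 0.89. With Th1 cells their means were 3.55 and 3.05 log2, against 2.61 and 2.69 in naive mice. Between the recipients, Tnfsf9 (0.99, adjusted p = 0.00144) and Tnfsf14 (0.52, adjusted p = 0.00441) were higher and Tnfsf13 (−0.70, adjusted p = 0.0230) lower with Th17 cells.

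Of 21 other receptors, 11 were higher and 2 lower with Th17 cells (6 and 10 on the ribosomal scale), and 8 were higher and 1 lower with Th1 cells (5 and 13). The 9 called with Th1 cells are close to the share over all genes (40.8%), and the direction of the list turns with the scaling. The T cell costimulatory receptors Tnfrsf9 (4-1BB), Tnfrsf4 (OX40) and Tnfrsf18 (GITR) rose by 2.64, 2.20 and 1.78 with Th17 cells, and Ltbr, the receptor for membrane lymphotoxin, by 1.73. With Th1 cells Tnfrsf9, Tnfrsf18 and Ltbr rose by 2.38, 1.65 and 1.48. Tnfrsf4 was at a mean of 4.32 log2 with Th1 cells against 2.77 in naive mice. Tnfrsf13b, which encodes TACI and binds BAFF and APRIL, rose by 2.26 with Th1 cells. Its mean was 4.97 with Th17 cells against 3.09 in naive mice. Tnfrsf19 (−0.53) and Tnfrsf13c (−0.32), the BAFF receptor, were lower with Th17 cells, and Tnfrsf13c was lower with Th1 cells (−0.35). The recipient means of Tnfrsf13c, 3.16 log2 with Th17 and 3.13 with Th1 cells, lay below the array medians. Tnfrsf22 (0.58, adjusted p = 0.0239) and Tnfrsf25 (0.34, adjusted p = 0.0273) were higher with Th17 than with Th1 cells, but neither was called without Th1 recipients 4 and 5 (adjusted p = 0.223 and 0.396).

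The signalling genes below the receptors were counted next. Of 21 adaptors and enzymes, 17 were higher and 2 lower with Th17 cells (8 and 4 on the ribosomal scale), and 14 were higher and 2 lower with Th1 cells (6 and 6). Birc3, a ubiquitin ligase of the TNF receptor complex, rose by 4.14 and 3.74 with Th17 and Th1 cells, Casp8, the initiator caspase of death receptors, by 3.71 and 3.41, and Cflar, its inhibitor cFLIP, by 2.31 and 1.99. Traf1 rose by 1.29 with Th17 cells and Traf5 by 1.01 with Th1 cells. In the other recipient group each mean also lay above the naive mean. Traf1 was at 3.91 log2 with Th1 cells against 3.18 in naive mice, and Traf5 at 3.92 with Th17 cells against 3.13. The deubiquitinase gene Cyld (−0.58 and −0.39) and the kinase gene Map3k7 (−0.35 and −0.36) were lower in both. Traf1 (0.56, adjusted p = 0.000204) and Birc3 (0.40, adjusted p = 0.0398) were higher with Th17 than with Th1 cells, and without Th1 recipients 4 and 5 Birc3 was not called (adjusted p = 0.133).

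All 12 measured NF-κB subunits and feedback inhibitors were higher with Th17 cells and 11 with Th1 cells, against 9 higher and 0 lower, and 9 higher and 1 lower, on the ribosomal scale. Tnfaip3, the feedback inhibitor A20, rose by 3.88 and 3.55, and Nfkb2, a subunit of the noncanonical pathway that lymphotoxin, BAFF and CD40 use, by 2.12 and 1.50. Bcl3 (1.46, adjusted p = 0.000248), Nfkbiz (1.37, adjusted p = 2.26e-05) and Nfkb2 (0.62, adjusted p = 0.00156) were higher with Th17 than with Th1 cells, and all 3 were called without Th1 recipients 4 and 5. Of the genes for shedding of TNF, the protease gene Adam17 rose by 2.23 and 2.11 and its partner Rhbdf2 by 2.02 and 1.57, while Timp3, its inhibitor, was lower with Th17 cells (−0.25) and not called with Th1 cells. Against naive mice the 10 members kept their directions on the ribosomal scale.

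**Figure D3:**
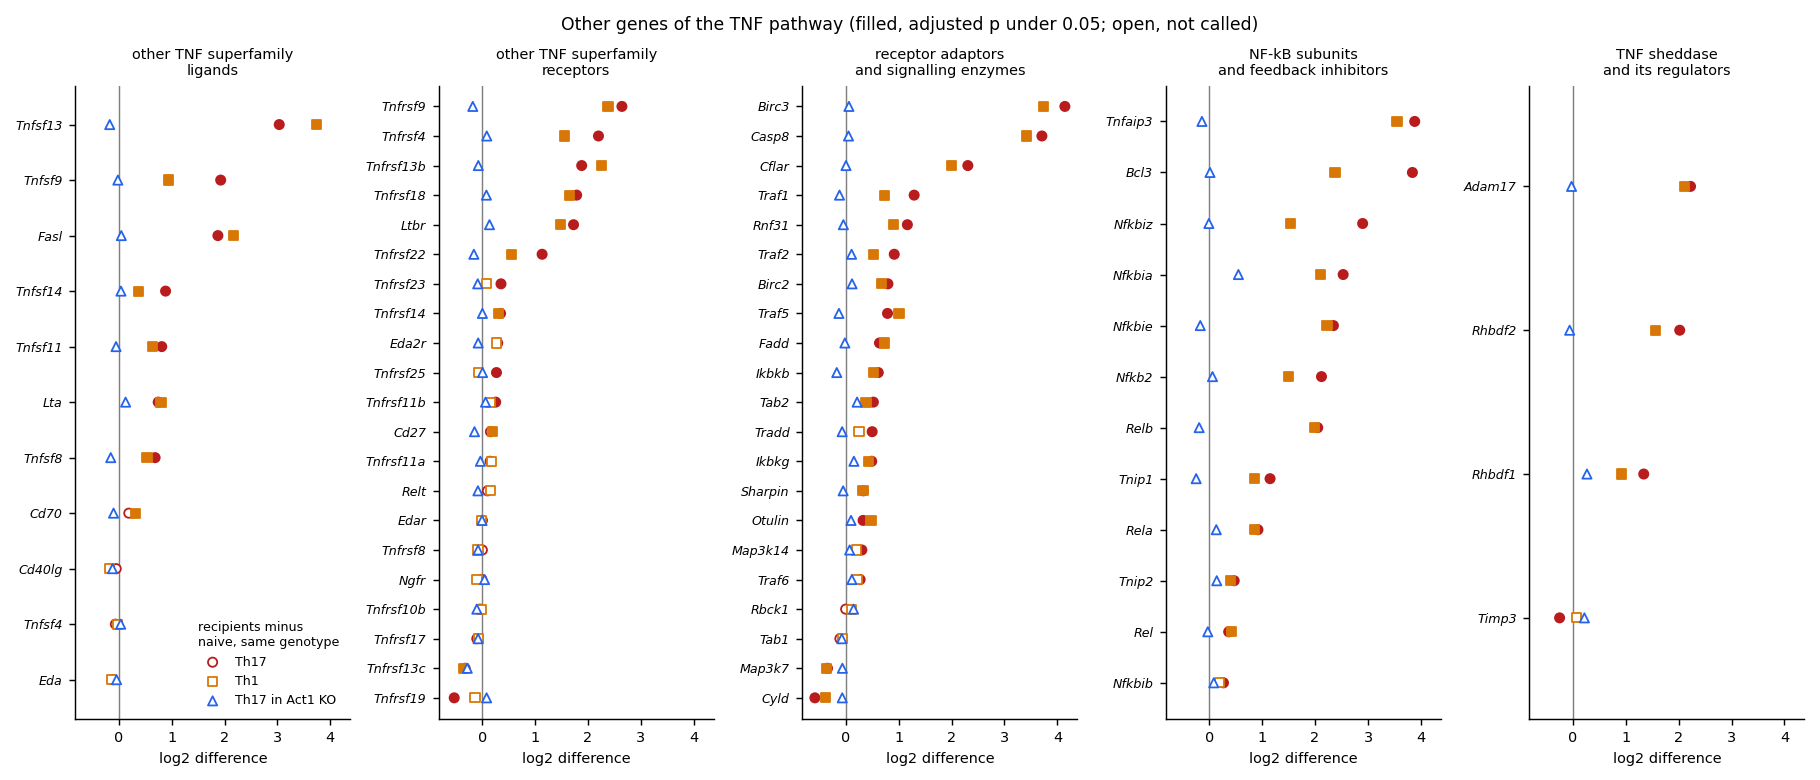
Log2 differences (horizontal axes) of the measured genes of 5 further TNF pathway lists, as recipients minus naive mice of the same genotype, for Th17 (circles) and Th1 (squares) recipients in wild type and for Th17 recipients in Act1 KO (triangles). Filled symbols have an adjusted p under 0.05; the Act1 KO symbols are all open, with Nfkbia the farthest above 0 at 0.55, while Birc3, Casp8, Tnfaip3 and Bcl3 reach beyond 3 in wild-type Th17 recipients.

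In Act1 KO mice the family showed no called response to Th17 cells. Tnf was at 2.76, 3.03, 2.74, 3.02 and 2.91 log2 in naive Act1 KO mice and at 2.89, 2.86, 2.41 and 2.71 in Act1 KO recipients. Tnfrsf1b was at 2.99, 3.11, 3.08, 3.22 and 3.14 in naive Act1 KO mice and at 3.17, 3.19, 3.22 and 3.11 in recipients. In both genes the Act1 KO groups overlapped and lay in the range of naive wild-type mice or close to it. None of the 10 members was called by limma, and none of all genes was (0%). An unadjusted p under 0.05 was found for 1070 of 17097 genes, among them Ltb, and some genes fall there by chance alone. The other tools with adjusted p called between 0 and 8 genes and no member. The intervals of the Th17 response in Act1 KO mice ran from −0.67 to 0.32 for Tnf, −0.17 to 0.30 for Tnfrsf1b, −0.19 to 0.21 for Tnfrsf1a and −0.15 to 0.50 for Fas. These intervals leave out the wild-type responses of the same genes.

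Ltb came closest to a response. It was at 3.22, 2.81, 2.99, 3.22 and 3.05 log2 in naive Act1 KO mice and at 3.61, 3.23, 3.44 and 3.44 in Act1 KO recipients, so that all 4 recipients lay above all 5 naive mice. The difference was 0.37 ± 0.15 (95% interval 0.07 to 0.67), with an exact permutation p of 0.0159, the smallest that 4 against 5 allow, and a limma adjusted p of 0.658. Tnfsf13b also did not overlap, with recipients lower by −0.23 (exact permutation p = 0.0159, limma adjusted p = 0.805). Groups that do not overlap were found for 2 of 10 members and for 1.50% of all genes, 0.813% with recipients above and 0.684% below. No plate row held both of these groups.

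The Th17 response differed between the genotypes in all 10 members, where 32.0% of all genes were called for this interaction, 18.2% with a higher and 13.8% with a lower value in Act1 KO mice. As the Act1 KO response minus the wild-type response, it was −4.57 ± 0.16 for Tnfrsf1b (adjusted p = 2.59e-18), −2.99 ± 0.22 for Fas (adjusted p = 1.85e-11) and −2.66 ± 0.13 for Tnfrsf1a (adjusted p = 5.65e-15). Among ligands the interaction was −2.26 ± 0.20 for Ltb (adjusted p = 9.17e-10), −2.08 ± 0.16 for Tnfsf13b, −2.02 ± 0.33 for Tnf and −1.03 ± 0.18 for Tnfsf10. Tnfrsf21 again ran the other way, at 0.58 ± 0.14 (adjusted p = 0.00155). Among recipients of Th17 cells, 9 members were lower and Tnfrsf21 was higher in Act1 KO than in wild-type mice, where 42.2% of all genes were called, 24.6% higher and 17.6% lower. The groups of none of the 10 overlapped (34.3% of all genes free of overlap, 19.2% above and 15.1% below). In the 1 plate row with both, the direction was the same for all 10.

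In naive mice, none of the 10 members was called between Act1 KO and wild type (0.585% of all genes, 0.164% higher and 0.421% lower), by limma or any other tool with adjusted p, and none was free of overlap between the groups (1.76%, 0.725% above and 1.04% below). The differences lay between −0.20 for Tnfrsf21 and 0.22 for Tnfsf13b, and only Tnfrsf21 had an unadjusted p under 0.05 (0.0436, limma adjusted p = 0.678). The cell type markers of Act1 KO recipients were not called against naive Act1 KO mice either. The summed monocyte and macrophage markers ran from 101 to 118 and the T cell markers from 75.8 to 86.7 in Act1 KO recipients, beside 108 to 115 and 74.1 to 85.6 in naive Act1 KO mice. All of the 5 pathway lists likewise had 0 called genes in Act1 KO recipients. The part of the marker levels in the members' interaction was not tested.

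**Figure D4:**
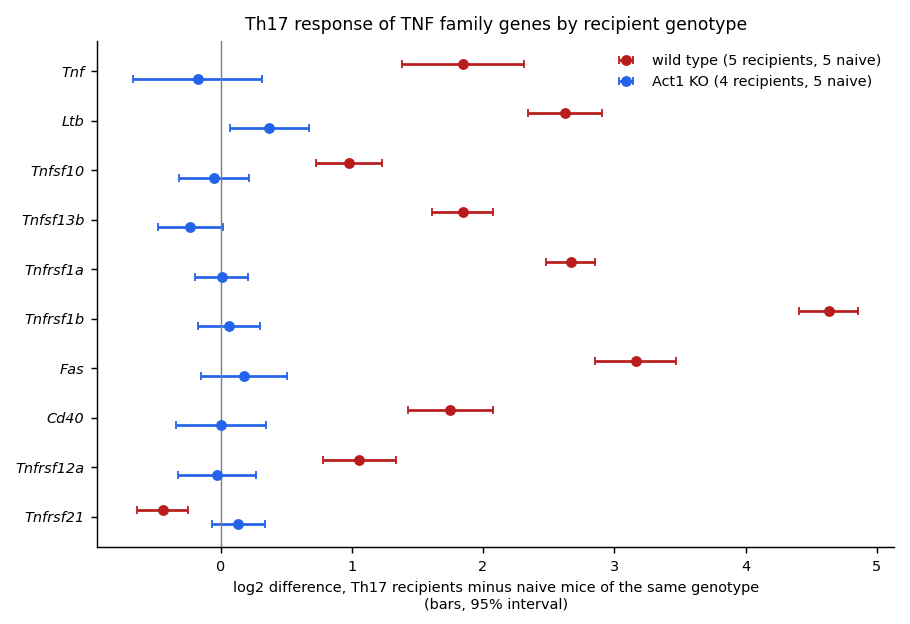
Th17 response of the 10 members as the log2 difference between recipients and naive mice of the same genotype (horizontal axis, bars 95% intervals), in wild-type (red) and Act1 KO mice (blue). The Act1 KO points lie between −0.23 for Tnfsf13b and 0.37 for Ltb, and the wild-type points between −0.44 for Tnfrsf21 and 4.63 for Tnfrsf1b.

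The genes whose levels ran most like those of each member were found by Pearson's r over the 24 arrays, which fall into naive-like and recipient groups, so that any gene with a wide response scores high. Tnfrsf1b ran with Cfb and Ccl5 (r of 0.999 and 0.998), Tnfrsf1a with Oas1g and Cd14 (0.996 and 0.995) and Fas with Ecm1 and Cd14 (0.994 and 0.992). Ltb ran with Ccl12 and Ccrl2 (0.983 and 0.979), Tnfsf13b with Irf8 and Fes (0.986 and 0.984) and Cd40 with Sema4d and Relb (0.976 and 0.975). Tnf had a lower match, with Csf3r at 0.953 and Relb at 0.939, as had Tnfsf10 with Itgb5 and Ifng (0.961 and 0.956) and Tnfrsf12a with Mcm5 and Rhoj (0.957 and 0.955). Tnfrsf21 ran with Klhl23 and Mtg1 (0.896 and 0.889). For Tnfrsf1b 804 genes had an r above 0.95, for Tnf only 1 and for Tnfrsf21 0.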

How the data were processed

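Total RNA of 24 spinal cords, 1 mouse each, was hybridised to Affymetrix mouse 3′ expression arrays. The authors deposited log2 intensities normalised with RMA, per the labels, for 45118 probe sets. Scanner files and detection calls were not used here, so dim levels have no measured floor. Groups were taken from the sample titles. Probe sets listed with 1 gene symbol (28898; 551 had several and 15669 none listed) were reduced to the set with the highest mean over the arrays, giving 17097 genes. The 5 group means entered a single linear model on all 24 arrays (limma 3.58.1, R 4.3.3), and two-sided p-values were adjusted by Benjamini-Hochberg over all genes. Single members were also tested with exact permutation tests (scipy 1.17.1). The fit was tested on simulated data. Beyond the 10 members, up to 4 genes of each pathway list with the smallest adjusted p, those called against the list's direction, and the 2 most similar genes per member were named, and Nfkbia and Traf3ip2 and the cell type markers besides, Nfkbia chosen after its values were seen. Members and lists were chosen with earlier results of these data known. Alternatives varied probe set choice, dim-gene filter, scaling, variance model, blocks, samples, test and fold threshold; those for the pathway lists were added after the data were seen. Array correlations within groups were 0.986 to 0.997, and no array was a duplicate. The p-values measure the spread between mice of a group. The number of arrays limits the precision.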

Additional observations from a re-analysis of the deposited data

Results flagged for a closer look

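The Th17 response differed between Act1 KO and wild-type mice for each member in the interaction term of the limma fit. The difference of the 2 responses (Act1 KO minus wild type, log2) was −2.02 for Tnf, −2.26 for Ltb, −1.03 for Tnfsf10, −2.08 for Tnfsf13b, −2.66 for Tnfrsf1a, −4.57 for Tnfrsf1b, −2.99 for Fas, −1.75 for Cd40, −1.08 for Tnfrsf12a and 0.58 for Tnfrsf21, with adjusted p from 2.59e-18 (Tnfrsf1b) to 0.00155 (Tnfrsf21).

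Cd40 in Th1 recipient 5 (5.65 log2) lay far above the other 4 Th1 recipients (4.49 to 4.83) by Dixon's criterion. This was 1 of 50 combinations of group and member examined, and chance alone marks about 1 group in 20.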

How the results depend on the processing

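Over 41 settings, 2738 of 2776 single values of the members kept their direction and side of the threshold, 20 lost the call, 14 gained it and 4 reversed, and 37 of those kept changed sign with no call on either side. Many of these settings left out 1 array each. Where that array was outside the compared groups, the log2 difference was fixed in advance and only its adjusted p could move. The reversals were those of Tnfsf13b with the median of its probe sets: −0.16 (Th17 against naive), −0.039 (Th1 against naive), 0.24 (Act1 KO against wild-type Th17 recipients) and 0.0563 (interaction), a median that takes in its 2 dimmer sets. Between Th17 and Th1 recipients the number of members called went from 2 to 0 with only the compared groups. It was 5 with the methods' t-test unadjusted, 0 with it after Benjamini-Hochberg, 0 with Mann-Whitney and 0 at 2-fold or more. Ltb and Fas differed by 1.56-fold and 1.63-fold, so the 2-fold threshold left them out. The smallest Mann-Whitney p for 5 against 5 mice, 0.00794, had an adjusted p of 0.241, so that test could call no gene. The cause of the other changes was not tested. In Act1 KO mice the methods' t-test unadjusted called 2 members. Leaving out 1 array gave 10 to 10, 9 to 10, 2 to 3, 0 to 0, 0 to 0, 10 to 10 and 10 to 10 members in the 7 comparisons, in the order Th17 against naive, Th1 against naive, Th17 against Th1, Act1 KO recipients against naive Act1 KO, naive Act1 KO against naive wild type, Act1 KO against wild-type recipients and the interaction. The replicate block gave 10, 10, 2, 0, 0, 10 and 10 in the same order, with no call changed, and correlations of same-numbered mice from −0.245 to 0.437 did not pair them. Over all genes, calls between Th17 and Th1 recipients went from 513 to 282 with only the compared groups, 320 without Th1 recipients 4 and 5, 1843 and 69 with the t-test before and after adjustment, 0 with Mann-Whitney and 88 at 2-fold. Between naive groups 100 became 35 with plate row as a block, 11 with the adjusted t-test and 0 with Mann-Whitney. In Act1 KO recipients 0 became at most 8, with array weights, besides 707 with the unadjusted t-test. Centring on ribosomal protein genes raised calls against naive mice from 7436 to 14875 (Th17) and from 6969 to 15236 (Th1). A 2-fold threshold left 1648 and 1400.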
